A study of Mus musculus with 2 samples.

Results

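Fibroblasts of the abdominal aorta that carried no UMI (unique molecular identifier, 1 counted transcript) of *Pi16*, *Dpp4*, *Postn* or *Cthrc1* were compared between 1 Control and 1 AngII+HS library of 10x single-cell RNA-seq. They are called negative fibroblasts here. They were chosen by measured values: at least 1000 UMIs and 200 genes with under 20% mitochondrial UMIs, at least 5 UMIs of *Dcn*, at least 2 of *Pdgfra* and *Lum* together, none of *Pi16* and *Dpp4*, none of *Postn* and *Cthrc1*, at most 1 of *Pecam1* and *Cdh5*, at most 1 of *Ptprc* and at most 2 of *Myh11*. This left 1273 cells, 543 in Control and 730 in AngII+HS, out of 6451 cells that met the rule without its *Pi16*/*Dpp4* and *Postn*/*Cthrc1* criteria (gated fibroblasts) and of 33281 cells past the depth filter.

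The mice were C57BL/6J males of 5 months. The AngII+HS mice received angiotensin II at 1500 ng/kg/min from subcutaneous minipumps for 28 days, with drinking water that held 0.9% NaCl and 0.2% KCl, and the control mice are labelled as given normal saline. Angiotensin II with salt is the study's model of abdominal aortic aneurysm, and suprarenal aortas were digested to single cells. The series' design text states that tissue of 5 mice was pooled per sample, whereas the protocol in the labels states 1 control mouse and 2 treated mice. The matrices held 11448 barcodes with 86618995 UMIs for Control and 24804 barcodes with 117146856 UMIs for AngII+HS. With 1 library per condition there was no replicate of any value: no test was made, intervals cover counting error only, and treatment, pool of mice and library cannot be told apart. Each barcode list recorded with a sample had as many entries as the other sample's matrix has columns, and the lists shared 67 barcodes. The matrices were used as they are recorded, and an exchange of the matrices would reverse every direction given here for AngII+HS against Control.

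Fibroblasts of the outer aortic layer, the adventitia, make and remodel collagen, elastic fiber and basement membrane. In vessels and other organs, cells with *Pi16*, a peptidase inhibitor, and *Dpp4*, a cell surface peptidase, are known as adventitial or universal fibroblasts, and *Postn* (periostin) and *Cthrc1* (collagen triple helix repeat containing 1) mark matrix-producing fibroblasts of injured tissue. *Dcn* and *Lum* encode collagen-binding proteoglycans and *Pdgfra* a growth factor receptor of fibroblasts.

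Negative fibroblasts were 33.0% of gated fibroblasts in Control (95% exact Clopper-Pearson interval 30.7 to 35.3) and 15.2% in AngII+HS (14.2 to 16.2). Of all cells past the filter they were 5.14% (4.73 to 5.58) in Control and 3.21% (2.99 to 3.45) in AngII+HS, on a base that counts every cell type. Among cells with at least 3000 UMIs this order turned, with a log2 ratio of AngII+HS over Control of 0.24 against -0.68, whereas that of the share of gated fibroblasts kept its sign (-1.09 against -1.12). The remaining gated fibroblasts of Control were mostly cells with *Pi16* or *Dpp4* only (892 cells), with 69 cells that carried *Postn* or *Cthrc1* only and 143 with both pairs. In AngII+HS the same classes held 1045, 1159 and 1870 cells. A criterion of no UMI is met more easily by a shallow cell, and negative fibroblasts were the shallowest class in both libraries: their median was 3196 UMIs in Control and 4021 in AngII+HS, against 4119.5 to 6227 and 4953 to 7052 in the other classes.

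**Figure D1:**
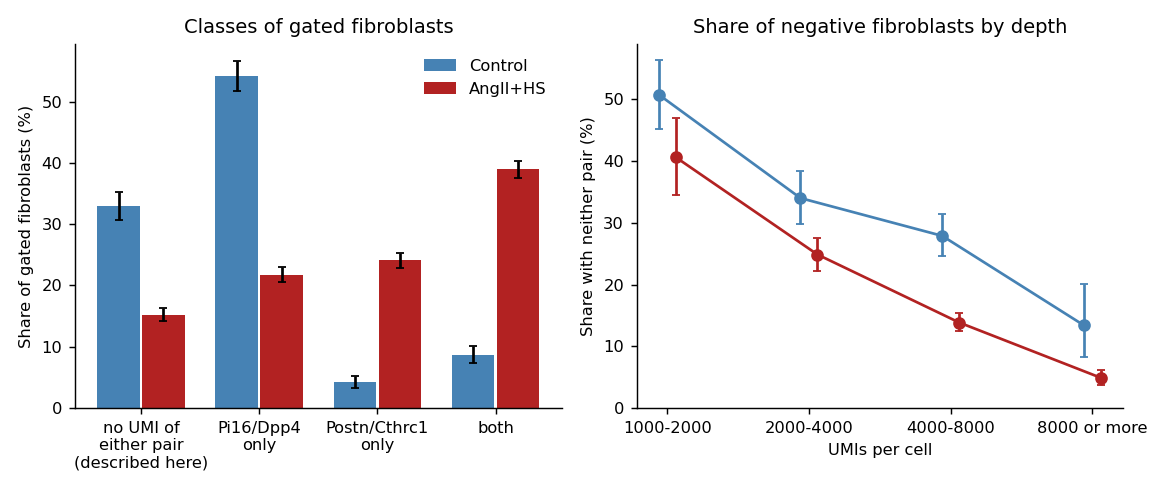
Left, share of gated fibroblasts (%) in each of 4 classes; right, share of gated fibroblasts with no UMI of either gene pair (%) against UMIs per cell. Bars and points are 1 library each (blue Control, red AngII+HS) with exact 95% binomial intervals; the share falls with depth in both libraries and lies higher in Control in each depth band.

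The share fell with depth in both libraries. Among cells of 1000 to 2000 UMIs it was 50.8% in Control and 40.6% in AngII+HS, with intervals that overlap (45.2 to 56.4 and 34.6 to 46.9). At 4000 to 8000 UMIs it was 27.9% (24.6 to 31.4) and 13.8% (12.4 to 15.4), and the intervals were apart. When gated fibroblasts that did carry a gene pair were thinned to 1000 UMIs each, 42.9% of the *Pi16*/*Dpp4* carriers of Control and 55.1% of those of AngII+HS lost all UMIs of the pair. For *Postn*/*Cthrc1* these shares were 60.4% and 56.3%. Absence of a UMI therefore does not show absence of the transcript in a cell of this depth. Just outside the rule, 281 Control and 340 AngII+HS cells had 1 UMI of *Pi16* and *Dpp4*, and 41 and 334 cells had 1 UMI of *Postn* and *Cthrc1*.

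The fibroblast label held for the genes that were not part of the rule. *Col1a2*, a chain of type I collagen, was at 4826 CPM (the gene's UMIs per 1000000 UMIs summed over the cells of a library) in Control and 7528 in AngII+HS, while the T and B lymphocytes, which serve here as a measure of free RNA, stood at 33.8 and 221 CPM. *Dpt* (dermatopontin, a matrix protein) was at 693 and 782 CPM against 5.34 and 13.7. Among defining markers of other cells, the 6 endothelial markers outside the rule summed to 8.24 CPM in Control and 15.5 in AngII+HS, and 7 T cell markers to 3.09 and 16.4; the rule itself limits *Pecam1*, *Cdh5* and *Ptprc*. Smooth muscle markers (7 genes, most abundant *Acta2*, smooth muscle actin) summed to 781 and 1024 CPM, beside 705 and 649 in T and B cells, and to 1938 CPM in the largest AngII+HS cluster described below.

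The name "without *Pi16* or *Postn* programs" held less well. Of the other 20 genes listed for the *Pi16*-type program, the summed level in negative fibroblasts was 5332 CPM in Control and 5030 in AngII+HS, against 9116 and 7192 in the *Pi16*/*Dpp4*-only class. The 20 genes listed for the *Postn*-type program summed to 2889 and 5334 CPM, against 4383 and 8616 in the *Postn*/*Cthrc1*-only class. A cluster in each library described below reached the level of the *Pi16*/*Dpp4*-only class for the first list; no cluster reached that of the *Postn*/*Cthrc1*-only class for the second. The cells are therefore named by the rule and not by a lack of these programs.

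Other cell types differed between the libraries. Macrophage markers (10 genes, most abundant *Lyz2*, a lysozyme) summed to 64.9 CPM in Control and 493 in AngII+HS negative fibroblasts, beside 144 and 1587 in T and B cells; 1 of the 10 was at 0 in Control and none in AngII+HS. Neutrophil markers (8 genes, most abundant *S100a9*, a calcium-binding protein of granulocytes) summed to 131 and 1505 CPM, beside 16.0 and 1945, with 2 at 0 in Control. Their median log2 ratio was 6.36 and turned slightly negative with the T and B cell profile subtracted, a setting described below. Erythroid markers, mostly *Hbb-bs* (a beta globin), summed to 701 and 1432, beside 26.7 and 896 in T and B cells. However, 1 Control cell held 93.1% of the *Hbb-bs* UMIs. The median log2 ratio of the list turned from 1.31 to -4.96 with Scrublet doublets removed. Pericyte markers, mostly *Rgs5* (a regulator of G protein signaling), summed to 521 and 1190 CPM, beside 164 and 173 in T and B cells. Adipocyte markers, mostly *Fabp4*, summed to 96.8 and 392 CPM, beside 32.1 and 261 in T and B cells, with 1 of 6 at 0 in Control. B and plasma cell markers summed to 3.61 and 172, mostly *Jchain*, with 4 of 6 at 0 in Control. Doublets were the cells with the highest Scrublet scores, up to a share preset at 0.8% per 1000 cells scored in a library. That share was 9.03% for Control, with 11288 cells scored, and 19.6% for AngII+HS, with 24560. Among negative fibroblasts, 9 Control cells (1.66%) and 162 AngII+HS cells (22.2%) were marked. These shares lay below the preset share in Control and above it in AngII+HS. The part of the preset shares in this contrast was not tested. A group of 106 AngII+HS cells fell into 2 clusters led by neutrophil or macrophage genes, and without them the macrophage sum was 166 CPM and the neutrophil sum 512 CPM.

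Across genes, 8729 had at least 50 UMIs over both libraries' negative fibroblasts, without the 11 genes of the rule. Of these, 523 were at least 2-fold higher in AngII+HS (5.99%) and 266 at least 2-fold lower (3.05%), with a median log2 ratio of -0.03. Without the 106 cells of the clusters led by other cell types, the counts were 377 and 254. A further setting subtracted the T and B cell profile, scaled to the full UMI total of the negative fibroblasts. This takes away more than free RNA, since the profile holds the lymphocytes' own RNA and every UMI is treated as free. Then 3317 genes kept enough UMIs, 323 were higher and 708 lower. Of these calls 31.3% were higher in place of 66.3%, and the median of the genes kept was -0.32. These values do not give the balance after a free RNA correction. Among the genes that were lower, 1 Control cell held at most 9.01% of the UMIs of *Cytl1* and 1.95% of those of *Tgfbi*. Several of the most increased genes came from few cells, and in AngII+HS 1 cell held 27.5% of the UMIs of *Saa3* and 79.0% of those of *Ighg2c*.

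**Figure D2:**
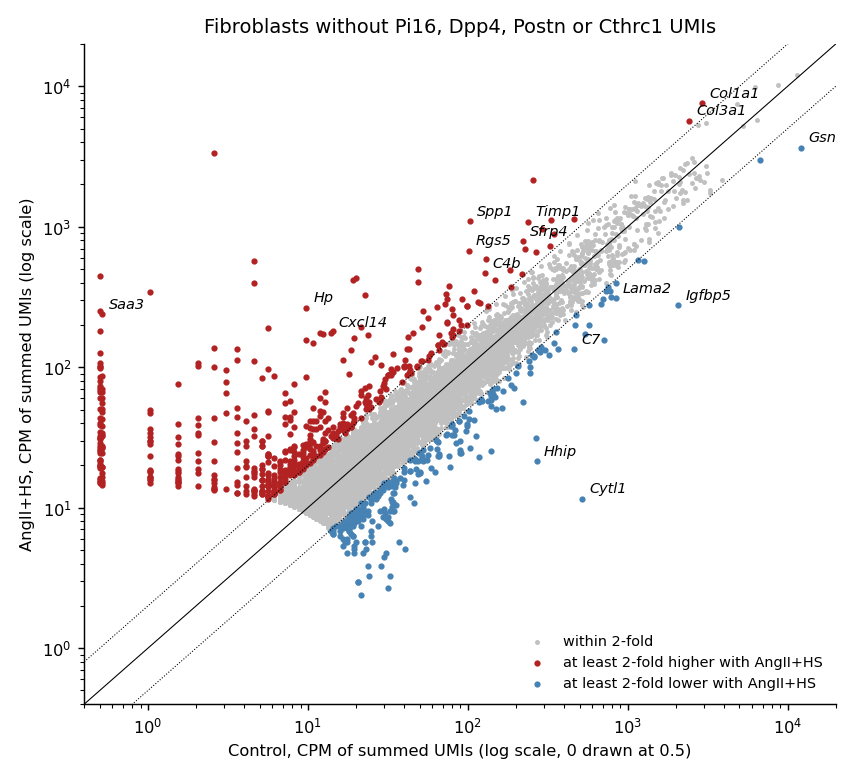
CPM of the summed UMIs in negative fibroblasts, Control (x axis) against AngII+HS (y axis), both on log scales, for the 8729 genes with at least 50 UMIs. Each point is 1 gene, the solid line marks equal levels and the dotted lines 2-fold; *Cytl1*, *Hhip* and *Igfbp5* lie far below the line, and *Spp1*, *Hp* and *Saa3* far above it.

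Genes that were lower in AngII+HS. *Cytl1*, a secreted cytokine-like protein, was at 520 CPM in Control and 11.6 CPM in AngII+HS, a log2 ratio of -5.49 (95% exact counting interval -5.99 to -5.02). It was found after thinning in 18.8% of the cells in Control and 0.822% in AngII+HS. *Hhip*, which binds hedgehog ligands, went from 269.9 to 21.4 CPM (log2 ratio -3.65). *Lsamp*, a cell adhesion protein, went from 268 to 31.6 CPM, where T and B cells of AngII+HS were at 21.2 CPM. For all 3 genes the counting intervals of the ratio lay below -2.78, and the share of cells with a UMI after thinning was lower too (18.2% and 1.92% for *Hhip*, 19.5% and 2.74% for *Lsamp*).

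*Igfbp5*, a binding protein of insulin-like growth factors, was the most abundant gene among the 12 that were lowest: 2077 CPM in Control against 277 in AngII+HS (log2 ratio -2.91, interval -3.01 to -2.80). *Tgfbi*, an adhesion protein that TGF-beta induces in many cells, went from 713 to 158 CPM (-2.18). *C7*, the complement component, went from 463 to 134 CPM (-1.79). *Gsn* (gelsolin, which severs actin filaments and is abundant in fibroblasts) was at 12211 CPM in Control and 3655 in AngII+HS (-1.74); it was named after its values had been seen. Also in this group were *Lamc3* (a laminin chain, -2.35), *Itih5* (a hyaluronan-linked protein, -2.00), *Nxph1* (neurexophilin, -1.96), *Hlf* (a transcription factor, -1.87), *Spock2* (a proteoglycan, -1.87) and *Enpp3* (an ectonucleotidase, -1.80).

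The 12 genes and *Gsn* were also lower in AngII+HS in each of the 3 other fibroblast classes, with log2 ratios of -0.74 (*Lamc3* in the *Pi16*/*Dpp4*-only class) to -5.64 (*Cytl1* in the *Postn*/*Cthrc1*-only class). *Cytl1* was at 457 CPM in Control and 24.0 in AngII+HS in the *Pi16*/*Dpp4*-only class and at 391 and 7.85 in the *Postn*/*Cthrc1*-only class. *Igfbp5* was at 3311 and 821 CPM, and at 3418 and 230, in these classes. In cells with both gene pairs *Igfbp5* was at 4471 and 409.95 CPM.

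Genes that were higher in AngII+HS. *Saa3*, an acute-phase serum amyloid A protein, had 1 UMI in Control (0.515 CPM) and was at 239 CPM in AngII+HS (log2 ratio 8.86, interval 6.38 to 14.2). It was found in 5.21% of AngII+HS cells after thinning, and T and B cells of that library stood at 79.0 CPM. *Hp* (haptoglobin, which binds free hemoglobin) was at 9.79 and 265 CPM (4.76). *Lcn2* (lipocalin 2, which binds bacterial iron carriers) was at 3.61 and 134 CPM (5.22), with 47.7% of its AngII+HS UMIs in 1 cell. *Slpi*, an inhibitor of leukocyte proteases, was at 48.9 and 498 CPM (3.35), with 42.0% of its AngII+HS UMIs in 1 cell. *Ighg2c*, an immunoglobulin heavy chain, had no UMI in Control and was at 446 CPM in AngII+HS, at least 288-fold above the floor of 3 UMIs, and 1182 of its UMIs lay in 1 cell. *Saa3*, *Hp*, *Lcn2* and *Slpi*, acute-phase and antimicrobial genes, were thus below 50 CPM in Control.

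The promoters of *Saa3* and *Lcn2*, which were higher, and of *Cytl1*, which was lower by the widest margin, are shown as examples. Each is 300 bases long, 250 before and 50 after the start site, in the direction of the gene, from RefSeq on GRCm38.p6: *Saa3* at chr7:46715627-46715926 on the minus strand, *Lcn2* at chr2:32387690-32387989 on the minus strand and *Cytl1* at chr5:37735269-37735568 on the plus strand. Capitals mark matches on either strand of the short motifs TTGCNNAA (C/EBP), TTCNNNGAA (STAT), TGANTCA (AP-1) and GGGNNTTCC (NF-kB).
Saa3: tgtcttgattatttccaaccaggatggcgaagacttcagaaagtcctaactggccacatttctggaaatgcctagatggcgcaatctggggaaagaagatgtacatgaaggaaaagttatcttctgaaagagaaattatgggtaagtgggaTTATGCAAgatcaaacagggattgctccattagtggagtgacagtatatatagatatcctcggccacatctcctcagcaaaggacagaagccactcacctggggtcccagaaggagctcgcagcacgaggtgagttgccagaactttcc
Lcn2: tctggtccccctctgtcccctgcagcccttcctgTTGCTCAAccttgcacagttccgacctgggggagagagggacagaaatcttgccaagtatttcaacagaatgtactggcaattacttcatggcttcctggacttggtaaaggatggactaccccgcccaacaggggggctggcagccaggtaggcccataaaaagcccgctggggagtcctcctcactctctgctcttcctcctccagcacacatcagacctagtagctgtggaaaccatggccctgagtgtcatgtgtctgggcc
Cytl1: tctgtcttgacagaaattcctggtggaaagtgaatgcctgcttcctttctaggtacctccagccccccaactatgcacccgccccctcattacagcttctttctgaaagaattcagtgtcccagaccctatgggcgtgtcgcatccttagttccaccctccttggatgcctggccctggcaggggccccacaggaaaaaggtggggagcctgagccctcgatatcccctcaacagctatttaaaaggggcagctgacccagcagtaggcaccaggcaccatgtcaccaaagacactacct

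The C/EBP letters matched once in *Saa3*, as TTATGCAA on the gene's strand (the motif on the opposite strand) starting 99 bases before the start site, and once in *Lcn2*, as TTGCTCAA starting 216 bases before it. No other of these motifs matched in these windows, and none matched in *Cytl1*. The same window of *Igfbp5*, which was also lower, was searched too and is not shown, and it held no match. The C/EBP letters occur in 10.8% of the 32851 promoters of the RefSeq table, the STAT letters in 8.30%, the AP-1 letters in 7.81% and the NF-kB letters in 5.82%. A match is a description of the letters and shows no binding. The motifs were chosen after the values had been seen.

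Among matricellular genes, whose products tune how cells sense the matrix, 8 of 19 were at least 2-fold higher and 1 (*Tgfbi*) lower, with a median log2 ratio of 0.59. Over all genes, 5.99% were higher and 3.05% lower. *Spp1* (osteopontin) was at 104 CPM in Control and 1100.4 in AngII+HS (3.41, interval 3.21 to 3.62), but 1 cell held 49.8% of the UMIs in Control and 1 cell 32.1% in AngII+HS. *Tnc* (tenascin C) was at 21.6 and 195 CPM (3.17), *Thbs2* (thrombospondin 2) at 23.7 and 171 (2.85) and *Comp* (cartilage oligomeric matrix protein) at 76.2 and 379 (2.31). *Thbs2* was found in 2.21% of Control and 12.3% of AngII+HS cells after thinning, and it was at 418 CPM in AngII+HS cluster 2 described below and at 75.1 CPM in the other AngII+HS cells. *Ccn3*, a growth regulator, was at 48.9 and 406 CPM (3.05) and *Fn1* (fibronectin) at 329.6 and 1109 (1.75). *Sparc*, which was found in most cells of both libraries, was at 3102 and 5489.7 CPM (0.82) and stayed within 2-fold.

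Fibrillar collagens, which form the load-bearing fibers, were higher in 3 of 8 genes and lower in none (median 0.70). The shares over all genes were 5.99% higher and 3.05% lower. *Col1a1* was at 2908 and 7608 CPM (1.39, interval 1.35 to 1.43) and *Col3a1* at 2425 and 5692 (1.23), while *Col1a2* was within 2-fold at 0.64. *Col11a1*, a minor fibrillar chain, was at 7.21 and 44.1 CPM (2.61). In the *Postn*/*Cthrc1*-only class *Col1a1* was at 3651 and 13268 CPM, so the AngII+HS level of negative fibroblasts was the lower of the pair. Of 11 fibril-associated and microfibrillar collagens 3 were higher (*Col8a1* 1.96, *Col12a1* 1.88, *Col6a5* 1.43) and 1 was lower (*Col8a2*, -1.01, and -0.90 without the clusters led by other cell types, which ends the call).

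Elastic fiber genes were higher in 4 of 16 and lower in 1 (median 0.25), beside 5.99% and 3.05% over all genes; without the clusters led by other cell types *Emilin2* fell from 1.14 to 0.71 and *Ltbp1* stood at -0.92, so both calls were lost. *Eln* (elastin) was at 289.95 CPM in Control and 963 in AngII+HS (1.73, interval 1.603 to 1.864), *Ltbp2* (a latent TGF-beta binding protein) at 80.3 and 187 (1.22) and *Mfap5*, a microfibril protein, at 329 and 731 (1.15). *Fbln1* (fibulin 1), the most abundant of the list, was at 763 and 757 CPM (-0.01). Of 16 basement membrane genes 3 were lower, none was higher and 13 were within 2-fold (median -0.22): *Lama2* (laminin alpha 2) at 842 and 311 CPM (-1.44), *Col15a1* at 322 and 122 (-1.40) and *Col4a3* at 55.6 and 22.04 (-1.34). None of 8 small leucine-rich proteoglycans passed 2-fold (median -0.46). Of 20 collagen processing genes only *Pcolce2*, an enhancer of procollagen cleavage, passed, at 259.6 and 119.7 CPM (-1.12).

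**Figure D3:**
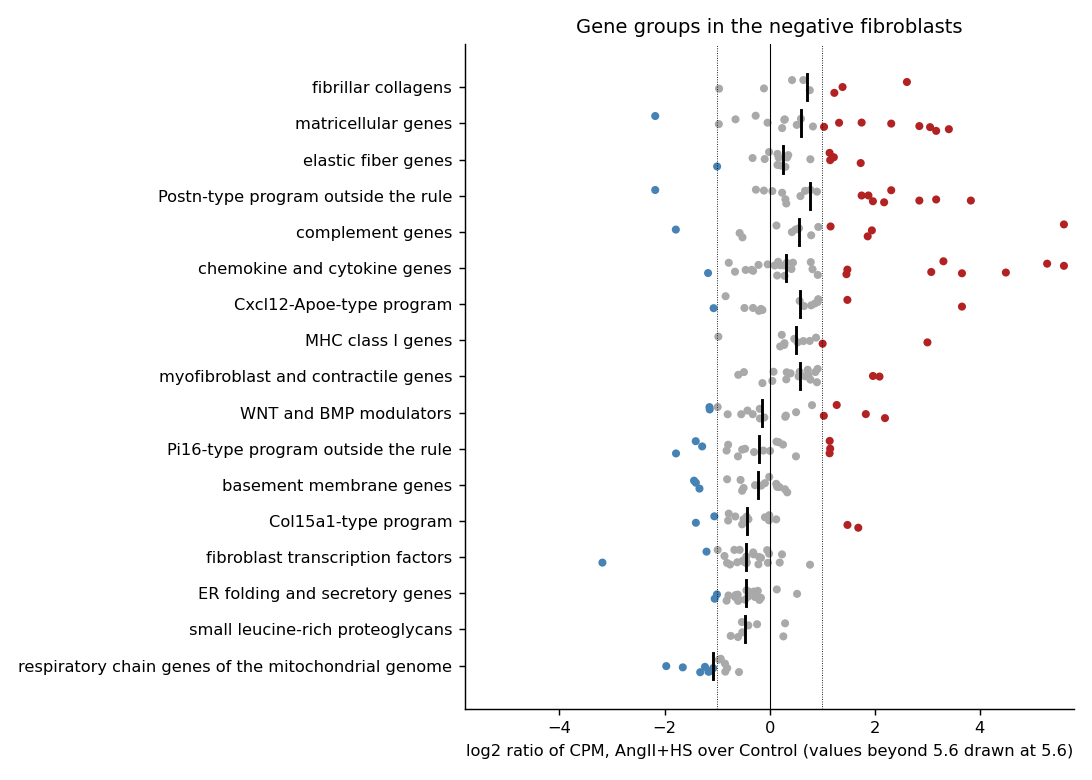
log2 ratio of CPM, AngII+HS over Control (x axis), of each gene with at least 50 UMIs in 17 gene groups in negative fibroblasts. Points are genes (red at least 2-fold higher, blue at least 2-fold lower), black bars the group medians and dotted lines 2-fold; fibrillar collagens and matricellular genes lie to the right, mitochondrial genes to the left.

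Of 16 metalloproteinases and their inhibitors 3 were higher and none lower (median 0.11), beside 5.99% and 3.05% over all genes. *Timp1*, the inhibitor of metalloproteinases, was at 239 and 1084 CPM (2.18, interval 2.04 to 2.32), while *Timp3* and *Timp2* were at -0.59 and -0.16. *Mmp13*, a collagenase, had no UMI in Control and 224 in AngII+HS, at least 43.2-fold higher than the floor of 3 UMIs in Control; 134 of its 224 UMIs came from 1 cell. *Mmp9*, a gelatinase of neutrophils among other cells, was at least 28.1-fold above its floor, but at 43.5 CPM it stood below the 65.8 CPM of T and B cells and was not above free RNA.

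Of 13 complement genes, 4 were higher and 1 (*C7*) lower, beside 5.99% and 3.05% over all genes. *C4b* was at 128 and 467 CPM (1.87) and *Clu* (clusterin) at 45.3 and 175 (1.95). *Serping1*, the C1 inhibitor, was found in most cells at 1648 and 2209 CPM (0.42). *Cfd* (adipsin) had no UMI in Control and 237 in AngII+HS, of which 89.0% were in 1 cell, and T and B cells of AngII+HS stood higher, at 151 CPM.

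Chemokine and cytokine genes were higher in 8 of 28 and lower in 1, *Il11* (-1.17, named after its value had been seen). Of all genes, 5.99% were higher and 3.05% lower. *Cxcl14*, a chemokine, was at 13.9 and 176 CPM (3.66) and *Cxcl5*, which attracts neutrophils, at 2.58 and 100.1 (5.28). *Il33*, an alarmin of stromal cells, was at 149 and 415 CPM (1.48). *Cxcl1* was at 2334 and 2824 CPM (0.27) and *Ccl2*, which attracts monocytes, at 1907 and 2105 (0.14), both within 2-fold. *Cxcl2*, which attracts neutrophils and was named after its values had been seen, was at 255 and 2153 CPM (3.07), and at 1092 CPM in AngII+HS without the 106 cells of clusters led by other cell types. Interferon-stimulated genes were higher in 1 of 20 and lower in 1, near the 5.99% and 3.05% over all genes. The higher gene, *Rsad2* (1.46), stood at 0.55 without the clusters led by other cell types and at -0.18 with Scrublet doublets removed. MHC class I genes were higher in 2 of 12, of which *Psmb9* (1.01) stood at 0.84 without those clusters; *B2m*, the light chain of MHC class I, was at 603 and 1111 CPM (0.88).

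Of 18 WNT and BMP modulators, 4 were higher, among them the secreted WNT antagonists *Sfrp1* (72.6 and 332 CPM, 2.19) and *Sfrp4* (222 and 789 CPM, 1.83), and 2 were lower, among them *Bmp2* (-1.15). *Grem1*, also among the 4, changed sign at 3000 to 10000 UMIs per cell. For each count in this paragraph, the shares over all genes were 5.99% higher and 3.05% lower. Of 16 TGF-beta pathway genes only *Inhba* (activin A) passed, at 19.6 and 163 CPM (3.05), a count near the 5.99% over all genes. Of 19 myofibroblast and contractile genes, *Palld* (an actin-binding protein, 42.2 and 165 CPM, 1.97) and *Cdh2* (N-cadherin, 2.09) passed, with a median of 0.57. Growth factor genes were higher in 5 of 26, including *Pdgfa* (40.2 and 99.8 CPM, 1.31), and lower in 1. Of 13 renin-angiotensin and corticosteroid genes, 1 was higher (*Enpep*, an angiotensin-cleaving peptidase, 7.73 and 21.4 CPM) and 1 lower (*Tsc22d3*, a glucocorticoid-induced gene, 201 and 91.7 CPM, -1.13). Counts of 1 of 13 stand beside 5.99% and 3.05% over all genes.

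Fibroblast transcription factors were lower in 2 of 25 and higher in none (median -0.44), with *Zeb1* at 702 and 305 CPM (-1.20) and *Meox1*, a homeobox factor, at 21.6 and 2.38 (-3.18). The shares over all genes, for each count in this paragraph, were 3.05% lower and 5.99% higher. *Zeb1* was higher in T and B cells (1339 and 860 CPM) than in negative fibroblasts. Of 20 ER folding and secretory genes, 2 were lower and none higher (*Dnajb9* -1.05, *Manf* -1.004; median -0.45), and *Manf* stood at -0.96 without the clusters led by other cell types, which ends its call. None of 23 immediate early genes, which respond to dissociation among other signals, passed 2-fold (median -0.27). Of 11 heat shock genes only *Hspa1a*, the inducible chaperone, was higher, at 229 and 700.1 CPM (1.61). None of 8 HOX genes and none of 6 cell cycle genes passed.

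Lists named for other fibroblast types gave mixed counts. Of 19 *Postn*-type genes outside the rule 8 were higher and 1 lower (median 0.78). Lists share genes, and *Tnc*, *Thbs2*, *Comp*, *Fn1*, *Col8a1*, *Col12a1*, *Timp1* and *Tgfbi* of this list were already counted above. Of 18 *Pi16*-type genes 3 were higher and 3 lower (median -0.21), with *Clec3b* at 682 and 279.9 CPM (-1.28). Of 15 *Col15a1*-type genes 2 were higher and 2 lower (median -0.44), and of 15 *Cxcl12*-*Apoe*-type genes 2 were higher and 1 lower (median 0.57). Of 17 glycolysis and hypoxia genes 2 were higher (*Pkm* at 1.06, and 0.96 without the clusters led by other cell types), of 18 lipid genes 4 were higher and 2 lower, of 19 metal and oxidant defence genes 2 were higher, and of 11 hyaluronan and proteoglycan genes *Prg4* was higher, beside 5.99% higher and 3.05% lower over all genes. *Fabp4*, a fatty acid carrier, was at 74.2 and 306 CPM (2.04, T and B cells of AngII+HS at 147), and *Fth1* (ferritin), the most abundant of the metal list, at 11434 and 12124 (0.08).

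Respiratory chain genes of the mitochondrial genome were lower in 7 of 13 (3.05% over all genes), with none higher (5.99% over all genes) and a median of -1.07, and *mt-Atp6* was at 6705 and 2991 CPM (-1.16). The same genes had a median of -0.95 in the *Pi16*/*Dpp4*-only class and -0.80 in the *Postn*/*Cthrc1*-only class. In T and B cells *mt-Atp6* was at 7590 and 3553 CPM. The part of the libraries in this difference was not tested.

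**Figure D4:**
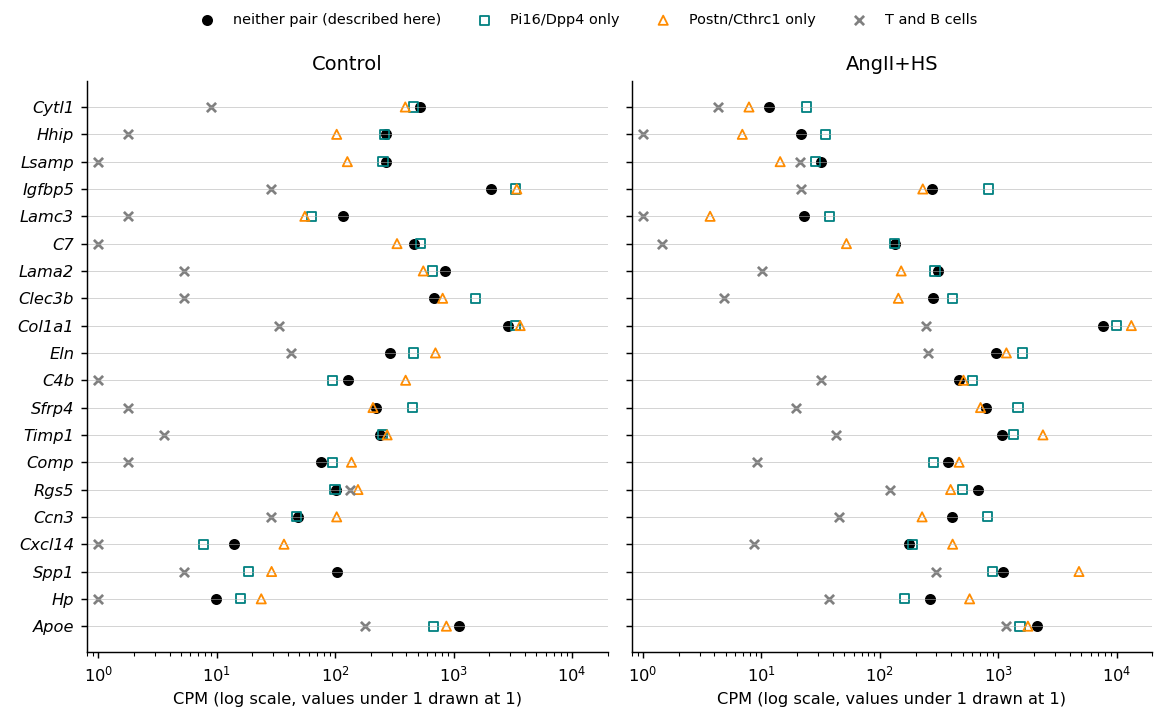
CPM of summed UMIs (x axis, log scale) of 20 genes in Control (left) and AngII+HS (right). Black points are negative fibroblasts, teal squares the *Pi16*/*Dpp4*-only class, orange triangles the *Postn*/*Cthrc1*-only class and grey crosses T and B cells; *Cytl1* and *Igfbp5* stand lower in all 3 fibroblast classes of AngII+HS, and *Spp1* is highest in the *Postn*/*Cthrc1*-only class there.

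Against the other fibroblast classes, few genes differed by 2-fold in both libraries. Of 9538 genes compared with the *Pi16*/*Dpp4*-only class, 18 were at least 2-fold above it in both libraries (0.189%) and 24 below it (0.252%). Of 8579 compared with the *Postn*/*Cthrc1*-only class, 30 were above (0.35%) and 14 below (0.163%). The rule sets the 2 classes apart by *Pi16*, *Dpp4*, *Postn* and *Cthrc1*, which were left out, and the minimum of 20 UMIs per library in this comparison was chosen after the values were seen. Only 69 Control cells made up the *Postn*/*Cthrc1*-only class.

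Above the *Pi16*/*Dpp4*-only class was *Cxcl13*, which attracts B cells, at 275 against 77.0 CPM in Control and 344 against 54.2 in AngII+HS; its level was 1102 CPM in cluster 3 of Control and 1094 in cluster 3 of AngII+HS, which are described below. *Apod* (apolipoprotein D) was at 346 against 118 CPM in Control and 886 against 122 in AngII+HS, where most of it came from 1 cluster of 24 cells described below. Outside that cluster the AngII+HS level was 50.2 CPM, below the 122 CPM of the class. *Rspo3*, a WNT enhancer, was at 50.5 against 11.0 CPM and 47.1 against 16.5, and *Igfbp3* (an IGF-binding protein) at 44.3 against 14.5 and 47.1 against 10.6. Below this class was *Cd55*, a complement regulator that marks *Pi16* fibroblasts, at 19.1 against 212 CPM in Control and 20.8 against 91.2 in AngII+HS. *Sema3e*, a guidance cue, was at 1.03 against 24.5 CPM in Control and at 1.19 against 4.00 in AngII+HS, on 2 and 4 UMIs. These genes were outside the rule but were read in the same cells.

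Below the *Postn*/*Cthrc1*-only class were *Adam12* (a metalloproteinase of activated fibroblasts, 16.0 against 55.5 CPM in Control and 29.8 against 69.1 in AngII+HS), *Col5a3* (27.3 against 148 and 25.3 against 66.4), *Prg4* (lubricin, 52.5 against 286 and 250.2 against 584) and *Ncam1* (14.4 against 79.3 and 27.4 against 80.1). Above it were the 4 globin genes, such as *Hbb-bs* at 428 against 7.93 CPM in Control and 755 against 144 in AngII+HS. In Control 1 cell held 775 of the 832 *Hbb-bs* UMIs, and in AngII+HS 1 cell held 858 of 2536.

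Negative fibroblasts were not uniform. Clustered separately in each library, with the genes of the rule left out, the 543 Control cells fell into 4 clusters and the 730 AngII+HS cells into 7. Clusters are numbered by size and named here by leading genes alone. In Control, cluster 1 (205 cells) was led by *Ltbp2*, cluster 2 (196 cells, median 1846 UMIs) by *Tagln* (transgelin) and *Cytl1*, cluster 3 (118 cells) by *Ifi205* and *Ifi204* (interferon-inducible genes) and cluster 4 (24 cells) by *Atf3* and *Klf2*. In AngII+HS, cluster 1 (233 cells) was led by *Rbp4*, *Notch3* and *Rgs5*, cluster 2 (185 cells) by *Igkc* and *Spp1*, and cluster 3 (173 cells) by *Ifi205*, *Sntg1* and *Sdk1*. Cluster 6 (24 cells) was led by *Apod*, at 41044 CPM, and cluster 7 held 9 cells.

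**Figure D5:**
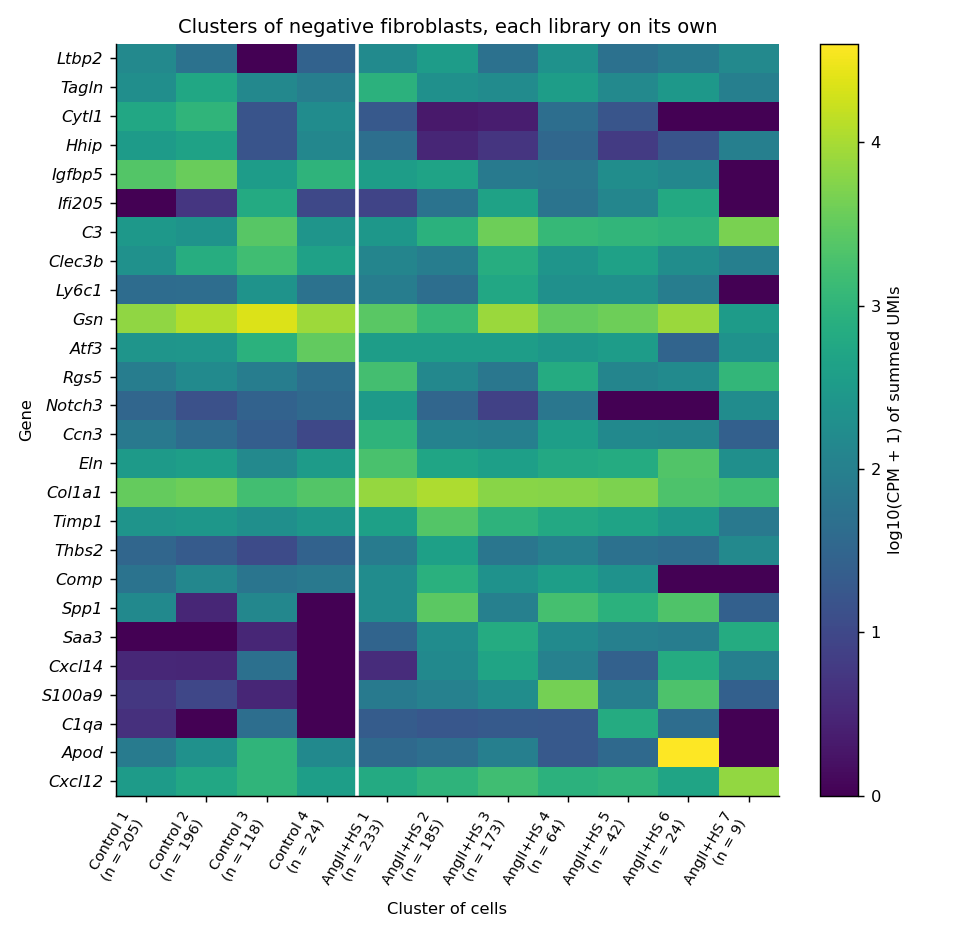
log10(CPM + 1) of summed UMIs of 26 genes (vertical axis) in the 4 Control and 7 AngII+HS clusters of negative fibroblasts (horizontal axis, white line between libraries, n cells under each name). *Cytl1* and *Igfbp5* are brighter in Control clusters 1 and 2 than in any AngII+HS cluster, and *Ifi205* and *C3* are bright in cluster 3 of both libraries.

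The lower genes differed in where they stood among the Control clusters. *Cytl1* was at 580 and 1020.5 CPM in these and at 14.5 in Control cluster 3, while in AngII+HS it reached at most 45.5 CPM, in cluster 4, which was led by neutrophil genes. *Igfbp5* was at 2369 and 3595 CPM in Control clusters 1 and 2, 344 in Control cluster 3 and 459 at most in AngII+HS. *Gsn* (6988, 11913 and 23005 CPM in Control clusters 1, 2 and 3), *C7* (165, 474 and 1046) and *Clec3b* (215, 731 and 1551) were highest in Control cluster 3 instead, and *Spock2* in Control cluster 4, at 180.1 CPM. None of the AngII+HS clusters shared more than 4 of 50 leading genes with Control cluster 1 or 2.

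Among AngII+HS clusters the higher genes were divided. *Rgs5* was at 1689 CPM in cluster 1 and 141 in cluster 2, *Ccn3* at 981 and 107, and *Eln* at 1888 and 497. Cluster 1 also held the highest summed pericyte markers among the clusters of over 10 cells, 2540 CPM. *Timp1* was at 2349 CPM in cluster 2 and 417 in cluster 1, *Spp1* at 2711 and 168, and *Comp* at 815 and 170. The share of cells with a *Timp1* UMI, without thinning, was 63.2% in cluster 2 and 59.8% in the other AngII+HS cells. For *Spp1* these shares were 35.1% and 24.6%, and for *Comp* 60.5% and 26.8%. Cluster 2 also held more erythroid markers than cluster 1 (3605 against 24.7 CPM summed) and more B and plasma cell markers (468 against 37.1 CPM), and their part in these values was not tested. The *Postn*-type genes outside the rule summed to 7995 CPM in cluster 2, against 8616 in the *Postn*/*Cthrc1*-only class. *Col1a1* was at 10915 CPM there and at 7389 in cluster 1.

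Cluster 3 of each library was the nearest match between the libraries, with 21 of 50 leading genes shared. Besides *Ifi205* (636 CPM in Control and 447 in AngII+HS), these clusters carried the complement gene *C3* at 2523 and 3866 CPM. Genes of the *Pi16*-type program outside the rule summed to 9505 CPM in the Control cluster and 8932 in the AngII+HS cluster, against 9116 and 7192 in the *Pi16*/*Dpp4*-only class. *Clec3b* (tetranectin) was at 1551 and 739 CPM in them, but *Cd55* at 29.0 and 28.5.

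Between these 2 clusters, 118 Control and 173 AngII+HS cells, 3917 genes had at least 50 UMIs. Of these, 220 were at least 2-fold higher in AngII+HS (5.62%) and 200 lower (5.11%). The clusters were chosen for their likeness after the data were seen, so the comparison is a description. Of the genes at least 2-fold higher in all negative fibroblasts, 120 were measured here and 83 were at least 2-fold higher again. Of those lower, 86 were measured and 59 were at least 2-fold lower again. The ratio had the opposite sign in 11 of the 120 and 2 of the 86, among them *Spp1* (3.41 over all negative fibroblasts and -0.38 here), *Rgs5* (2.73 and -0.39) and *Apod* (1.36 and -3.41). These cells are part of the full set, so the counts are not independent of it.

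Within the *Ifi205* clusters, fibrillar collagens were higher in 3 of 7 genes and lower in 1, matricellular genes higher in 7 of 17 and lower in 2, and basement membrane genes lower in 3 of 12 and higher in none (median -0.60). Over all genes of this pair, 5.62% were higher and 5.11% lower. Small leucine-rich proteoglycans were higher in 2 of 7 and lower in 1, with a median of -0.70. *Col1a1* was at 1587 CPM in Control and 6069 in AngII+HS (1.94), *Timp1* at 193 and 940 (2.29), *Sfrp4* at 315 and 1537 (2.29), *C4b* at 336 and 1179 (1.81) and *Vcam1*, an adhesion molecule for leukocytes, at 186 and 778 (2.06). *Saa3* was at 2.07 and 682 CPM and *Cxcl14* at 49.7 and 485. Adipocyte markers were also higher by sum, at 101 CPM in the Control cluster and 963 in the AngII+HS cluster (*Fabp4* 72.5 and 695, *Car3* 4.14 and 191, *Adipoq* 0 and 33.9). *Cfd*, most of whose AngII+HS UMIs lay in 1 cell, had 217 UMIs in this AngII+HS cluster, so the sums do not show a shift across its cells. Neutrophil markers summed to 109.8 and 449.9 CPM and erythroid markers to 2585 and 23.04 CPM in these clusters, and the part of these markers in the values was not tested. *Gsn* was lower at 23005 and 8149 CPM (-1.50), *Lama2* at 472 and 146 (-1.69) and *Ccl11* (eotaxin) at 1493 and 485 (-1.62). *Vcam1* and *Ccl11*, which were named after their values had been seen, were within 2-fold over all negative fibroblasts (0.57 and -0.78).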

How the data were processed

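The deposited matrices held whole UMI counts per gene and barcode from 10x 3' libraries, which the authors made with Cell Ranger; the file header names release 8.0.1 and the methods an earlier one. The labels give mm10 and the methods GRCm39, so no coordinate of the files is printed. The authors' doublet calls were not used. UMIs were summed over the chosen cells of each library and divided by their total (CPM). Intervals are exact at 95% and cover counting error only. A gene was called at 2-fold or more with at least 50 UMIs over both libraries, and shares of cells with a UMI were taken after thinning to 1000 UMIs. Named genes were the 12 highest and 12 lowest with at least 200 UMIs, a UMI in at least 10% of cells of a library and 3 times the CPM of T and B cells, the 4 most changed and 2 most abundant genes of each list, and the 10 highest and 10 lowest against each class. Scrublet and Leiden clustering ran in scanpy 1.11.5 and TMM scaling in edgeR 4.0.16. In a simulation of the AngII+HS against Control comparison on 8661 genes, with counting error only and no spread between cells, 97.8% of changed and 0.236% of unchanged genes were called. Depth, doublet, marker, scaling, free RNA and threshold settings were varied. The members and lists were chosen with earlier results of these data known.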

Additional observations from a re-analysis of the deposited data

Results flagged for a closer look

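Of the genes that could be named, 6 had a log2 ratio of AngII+HS over Control, with 0.5 UMIs added, that passed 2-fold in opposite directions in negative fibroblasts and in another fibroblast class of the same libraries, with counting intervals that exclude 0 in both. Only genes that could be named were searched, many of them chosen for a change in negative fibroblasts. No share over all genes was taken, so the count of 6 does not show how common such genes were. The difference was not tested, since each class came from 1 library per condition. *Enpep* was at 1.44 in negative fibroblasts (7.73 and 21.4 CPM) and at -2.78 in the *Postn*/*Cthrc1*-only class (55.5 and 8.20 CPM). *Apod* was at 1.36 (346 and 886 CPM) and at -1.69 in that class (254 and 78.9 CPM); the Control part of that class held 69 cells. Outside the AngII+HS cluster of 24 cells that *Apod* led, the AngII+HS level was 50.2 CPM, below that of Control. Against cells with both gene pairs, *Pdgfc*, a growth factor, was at 1.37 and at -2.10 in that class, *Emilin2*, an elastic fiber protein, at 1.12 and -1.89 (0.71 in negative fibroblasts without the clusters led by other cell types), and *Col8a2* at -1.003 and 1.21 (-0.90 without those clusters). *Retnlg*, a neutrophil gene, was at 6.17 in negative fibroblasts, on 1 and 186 UMIs (55.4 CPM in AngII+HS, and 19.4 without those clusters), and at -1.01 in the cells with both pairs.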

How the results depend on the processing

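No paired analysis was possible because each group had 1 replicate. The log2 ratio of the share of all cells was -0.68 and turned to 0.24 with at least 3000 UMIs per cell; it was -0.24 at 3000 to 10000 UMIs and -0.90 without the clusters led by other cell types, a setting chosen after seeing the data. The ratio of the share of gated fibroblasts was -1.12, and -0.93 and -1.31 under the last 2 of these. Against 523 higher and 266 lower genes, there were 344 higher and 235 lower with Scrublet doublets removed. The share of cells marked as doublets was preset from the number of cells in each library, so this setting removes unequal shares by design. With no UMI of other-type genes allowed, 346 were higher and 191 lower. With the full T and B cell profile subtracted, which takes away more than free RNA, 323 were higher and 708 lower of 3317 tested. There 31.3% of calls were higher against 66.3%, and the median of the genes kept was -0.32. At least 20 UMIs gave 925 and 508, at least 200 UMIs 177 and 96, 1.5-fold 1148 and 951, and 3-fold 284 and 70. *Grem1* turned to -0.22 at 3000 to 10000 UMIs, *Rsad2* to -0.18 and the erythroid median to -4.96 with Scrublet doublets removed, and, for the median log2 ratio, neutrophil markers turned to -0.00789 with free RNA subtracted. Of 89 named genes past 2-fold, 71 stayed past it in the same direction under every alternative that gave them a value. The cause was not tested. Depth limits each criterion of no UMI.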

Other observations

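Among small clusters of AngII+HS negative fibroblasts, the *Apod* cluster (24 cells) carried *Ccl2* at 11773 CPM and *Ccl11* at 4411 CPM, against 2105 and 258 CPM in all negative fibroblasts of that library. The cluster of 9 cells carried *Cxcl13* at 5718 CPM and *C3* at 4676 CPM. Its pericyte markers summed to 2714 CPM, against 1190 over all AngII+HS negative fibroblasts. A list of 7 fibroblast markers outside the rule summed to 4701 CPM in this cluster, against 26229, and the part of these markers was not tested. The *Apod* cluster also carried neutrophil markers at a summed 4397 CPM, against 1505 over all AngII+HS negative fibroblasts, and B and plasma cell markers at 716 CPM, against 172; their part in these values was not tested. Scrublet marked 41.7% and 22.2% of the cells of these clusters, beside the 19.6% preset for that library. These genes were chosen after their values had been seen, and the clusters have no counterpart in another library of the same condition.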
